A study of Mus musculus with 8 samples.

Results

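Hox genes encode homeodomain transcription factors, and Pbx3 encodes 1 of the proteins that bind DNA beside them. The genes described here are Hoxa5, Hoxa7, Hoxa9 and Hoxa10 of the Hoxa cluster, Hoxb2, Hoxb3, Hoxb4 and Hoxb5 of the Hoxb cluster, and Pbx3. They were chosen by name, and all 9 were among the 10720 genes of the single-cell table. Single hematopoietic stem cells (HSCs), sorted as LSK CD150+CD34-CD48- cells from the bone marrow of adult C57BL/6 mice, were picked by hand and sequenced from the poly(A) end with unique molecular identifiers (UMIs), which count each captured mRNA molecule once. KO-labelled cells came from Mx1-cre+ Med23 L/L mice and WT-labelled cells from Mx1-cre- Med23 L/L littermates, and the study describes mice of both designations as sampled after poly(I:C), which switches on the interferon-responsive Mx1 promoter that drives the recombinase. Mx1-cre is active in interferon-responsive cells in general and is not restricted to HSCs. There were 4 libraries of each label, but the table gives each cell only its genotype, and each label was therefore handled as a single pool without replicates.

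In mammals the Hox genes lie in 4 clusters, in which genes nearer the 3' end are switched on earlier and further forward in the embryo. In adult marrow, genes of the Hoxa and Hoxb clusters are transcribed in stem and early progenitor cells and are silenced as cells mature, with MLL-type methyltransferases keeping them active and Polycomb proteins repressing them. Hox proteins alone bind short and unspecific sites. They gain affinity with the three-amino-acid-loop-extension (TALE) homeodomain proteins of the Pbx and Meis families, and the combination of Hoxa9, Meis1 and Pbx3 is known from acute myeloid leukemia.

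The proximal promoters of Hoxa9 and Hoxb4 are shown because these genes had the highest and the lowest level of the 9 in the WT-labelled pool. Each is the 250 bases before the RefSeq start site on build GRCm38.p6, in the direction of transcription, and capitals mark GGAA or, for a match on the other strand, TTCC, the core recognised by ETS factors such as Fli1 and Erg.
Hoxa9, chr6:52227371-52227620, minus strand: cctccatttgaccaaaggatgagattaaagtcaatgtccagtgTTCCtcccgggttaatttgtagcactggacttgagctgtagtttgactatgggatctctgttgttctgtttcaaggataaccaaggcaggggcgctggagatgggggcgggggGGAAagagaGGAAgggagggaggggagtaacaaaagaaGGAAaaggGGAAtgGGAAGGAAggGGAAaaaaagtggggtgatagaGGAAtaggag
Hoxb4, chr11:96318017-96318266, plus strand: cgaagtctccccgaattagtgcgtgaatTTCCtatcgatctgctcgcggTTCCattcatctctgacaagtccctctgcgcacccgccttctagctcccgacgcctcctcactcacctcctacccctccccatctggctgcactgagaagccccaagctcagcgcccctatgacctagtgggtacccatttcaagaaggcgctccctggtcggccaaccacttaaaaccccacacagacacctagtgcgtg
RefSeq promoter windows were matched for 5 of the 9 genes, in 6 windows. The motif GGAA was chosen after the sequences had been seen. It occurred 9 times in the Hoxa9 window, of which 8 were on the printed strand, and 0.505% of 32851 promoter windows held at least as many. The Hoxb4 window held 2, and 76.8% of windows held at least as many. The composite Pbx-Hox motif TGATNNAT was found in 0 of the 6 windows and in 7.68% of all windows, and the Meis motif TGACAG in 0 of 6 and in 15.9%, with both strands searched. The TATA box TATAAA was found in 1 of 6 windows, a downstream start site of Hoxa10, and in 12.4% of all windows. These are matches of letters and were not compared with any binding data.

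The study describes all 586 cells as retained after its own filter. Recounted on the 10720 genes of this table, 493 met the study's stated minimum of 2000 genes and 20000 UMIs. Of these, 259 were labelled WT with 21475782 UMIs and 234 KO with 16180546. The median WT-labelled cell held 59649 UMIs and the median KO-labelled cell 50281. Med23 itself had 122 UMIs in the WT-labelled pool and 117 in the KO-labelled pool, a log2 ratio of 0.35 with a 95% counting interval from -0.03 to 0.73. Without the oocyte-list cells defined below it was 0.08 (-0.32 to 0.48). The pooled level of the targeted transcript therefore did not separate the labels. A single KO-labelled cell held 28 of the 117 UMIs. Med23 was seen in 18.1% of WT-labelled and 11.5% of KO-labelled cells, and in 7.34% and 6.41% after each cell was thinned to 20000 UMIs. Tags taken at the poly(A) end do not check exons deleted elsewhere in the gene. Transcripts of an oocyte list (30 of 31 genes in the table) summed to 2913 UMIs per 1000000 UMIs (CPM) in the WT-labelled pool and to 136 in the KO-labelled pool, with 0 to 61654 CPM in single WT-labelled cells and 0 to 2075 in single KO-labelled cells. Cells over 1000 CPM of this list, 71 labelled WT and 4 labelled KO, are called oocyte-list cells, and the ratios of the 9 genes are given with and without them. All intervals are 95% intervals that cover counting error only.

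The summed Hoxa members reached 195 CPM (189 to 201) in the WT-labelled pool and 264 CPM (256 to 272) in the KO-labelled pool, a log2 ratio of 0.44 (0.38 to 0.50). Without the oocyte-list cells the log2 ratio of the summed Hoxa members was 0.34 (0.27 to 0.40). The summed Hoxb members had 56.0 CPM (52.9 to 59.3) and 51.7 CPM (48.3 to 55.4), a log2 ratio of -0.11 (-0.24 to 0.01), and -0.13 without the oocyte-list cells. Both sums join unlike genes. Among the Hoxa genes, the interval lay above 0 with and without the oocyte-list cells for Hoxa7 and Hoxa9, while that of Hoxa5 held 0 and that of Hoxa10 did without those cells. Among the Hoxb genes, Hoxb2 and Hoxb5 had intervals on opposite sides of 0.

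**Figure D1:**
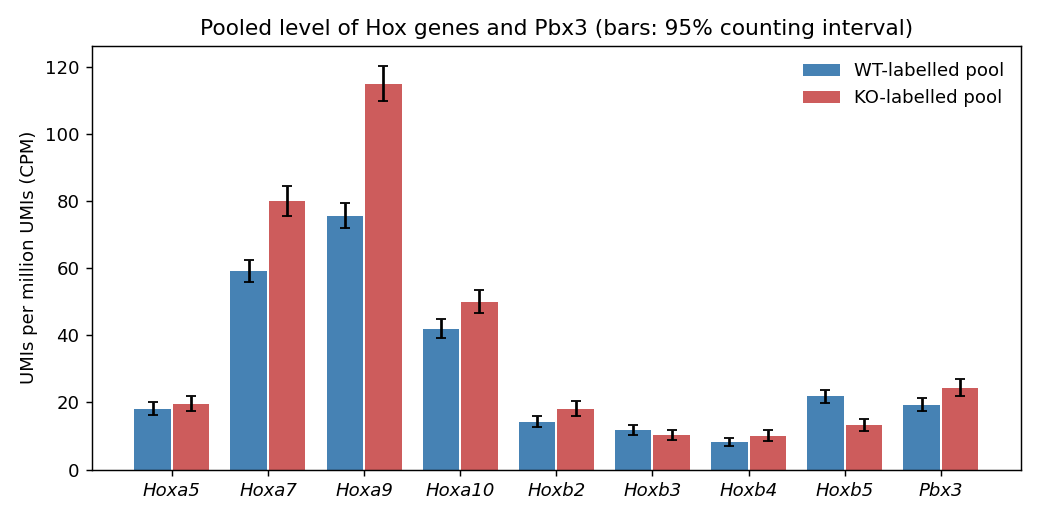
Pooled level of each gene in CPM (vertical axis) in 259 WT-labelled cells (blue) and 234 KO-labelled cells (red), with 95% Poisson intervals as error bars. Hoxa9 is the highest bar in both pools, at 75.7 and 115 CPM, and Hoxb5 is the gene whose WT bar stands furthest above its KO bar, at 21.8 and 13.2 CPM.

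None of the 9 genes differed by 2-fold between the pools: 0 were at least 2-fold higher in the KO-labelled pool, where 5.46% of the 9325 genes that averaged 0.5 UMI or more per kept cell were, and 0 were at least 2-fold lower, where 5.35% of those genes were. All 9 genes were over that minimum. Their log2 ratios had a median of 0.31, against 0.03 for the 9325 genes. The ratio was above 0 for 7 genes and below 0 for 2, Hoxb3 and Hoxb5, and 52.8% of all 9325 genes were above 0.

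Hoxa9, which maintains HSC self-renewal and drives leukemia when overexpressed, had 1625 UMIs in the WT-labelled pool and 1858 in the KO-labelled pool. Its level was 75.7 CPM (72.0 to 79.4) and 115 CPM (110 to 120), and single cells ranged from 0 to 757 CPM and from 0 to 1170 CPM. The cell at the median had 4.63 CPM of Hoxa9 among WT-labelled cells and 64.4 CPM among KO-labelled cells, with the WT median near 0 because close to equal numbers of cells had and lacked the gene. The log2 ratio of the pools was 0.60 (0.50 to 0.70), and 15.1% of the 9325 genes had a ratio at least as high. Without the oocyte-list cells the log2 ratio of Hoxa9 was 0.54 (0.43 to 0.64). Over 9 alternatives of cell choice, depth, weight and scaling that give a ratio, the Hoxa9 value lay between 0.54 and 0.74.

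Hoxa9 also differed most in the share of cells in which it was seen. After each cell was thinned to 20000 UMIs, a UMI of Hoxa9 was present in 108 of 259 WT-labelled cells (41.7%, 35.6 to 48.0) and in 134 of 234 KO-labelled cells (57.3%, 50.7 to 63.7), and without thinning in 51.0% and 67.5%. The higher share was in the pool with the shallower cells. The difference of 15.6 percentage points was matched or exceeded by 1.1% of the 9325 genes, a comparison chosen after the values were seen, and genes seen in very few or nearly all cells have less room to differ. At a minimum of 5 thinned UMIs the Hoxa9 shares were 12.4% (8.61 to 17.0) and 21.8% (16.7 to 27.6). Without the oocyte-list cells the Hoxa9 shares after thinning were 43.1% and 57.4%. Cells that held Hoxa9 had a median of 6.5 UMIs in WT and 7 in KO before thinning. With unthinned shares, the log2 ratio of 0.60 was made up of 0.41 from the share of cells and 0.20 from the level in cells that held Hoxa9.

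Hoxa7, a neighbour of Hoxa9 in the cluster, had 1270 and 1294 UMIs in the WT-labelled and KO-labelled pools. The Hoxa7 level was 59.1 CPM (55.9 to 62.5) and 80.0 CPM (75.7 to 84.5), with highest cells at 1216 and 771 CPM. The log2 ratio was 0.44 (0.32 to 0.55), and 0.28 (0.16 to 0.40) without the oocyte-list cells. Without thinning, the share of cells with Hoxa7 differed little, at 35.9% in WT and 37.2% in KO. Hoxa7 was seen in 27.0% (21.7 to 32.9) of thinned WT-labelled cells and 31.6% (25.7 to 38.0) of those labelled KO, and the cells that held it had a median of 5 UMIs in WT and 9 in KO. With unthinned counts and on the log2 scale, 0.39 of the Hoxa7 ratio came from the level in such cells and 0.05 from their share. The thinned shares lay further apart than the unthinned ones, so this split depends on depth.

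Hoxa10, which like Hoxa9 promotes proliferation of progenitors and restrains their differentiation, had 902 and 809 UMIs. The Hoxa10 level was 42.0 CPM (39.3 to 44.8) in WT and 50.0 CPM (46.6 to 53.6) in KO. Its log2 ratio of 0.25 (0.11 to 0.39) became 0.08 (-0.06 to 0.23) without the oocyte-list cells, in which Hoxa10 stood at 27.3 CPM against 47.5 CPM in the other WT-labelled cells. The shares of thinned cells with Hoxa10 were 30.1% and 32.1%, with intervals that overlapped. The Hoxa10 difference between the pools was therefore not separable from counting error once these cells were left out.

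Hoxa5 had 389 UMIs in WT and 316 in KO, and 18.1 CPM (16.4 to 20.0) and 19.5 CPM (17.4 to 21.8). Its log2 ratio was 0.11 (-0.11 to 0.33), and 0.21 (-0.03 to 0.45) without the oocyte-list cells. A single KO-labelled cell held 121 of the 316 Hoxa5 UMIs, or 38.3%, and without the cell with the most UMIs in each pool the ratio was -0.38. Cells with Hoxa5 made up 13.5% of thinned WT-labelled cells and 11.1% of those labelled KO. No direction can be given for Hoxa5 from these pools.

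In the Hoxb cluster, Hoxb5, which is known to mark the long-term repopulating fraction of mouse HSCs, was the gene with the lowest ratio. There were 468 UMIs of Hoxb5 in WT and 214 in KO, and the level was 21.8 CPM (19.9 to 23.9) and 13.2 CPM (11.5 to 15.1). The highest cells had 804 and 697 CPM. The log2 ratio of Hoxb5 was -0.72 (-0.96 to -0.48), 9.19% of the 9325 genes had a ratio at least as low, and it was -0.75 (-1.01 to -0.49) without the oocyte-list cells. The size of this difference depended on the weight given to deeply sequenced cells. With each cell thinned to 20000 UMIs the log2 ratio of Hoxb5 was -0.31, as a mean of the cells' CPM it was -0.36, and with the authors' normalized values it was -0.17. After thinning a UMI of Hoxb5 was present in 12.7% (8.94 to 17.4) of WT-labelled cells and 11.1% (7.39 to 15.9) of KO-labelled cells, so the shares did not separate the pools.

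Hoxb5 is overlapped on the opposite strand by the noncoding gene Hoxb5os in the GENCODE annotation, and the use of strand in counting is not given in the sources used here. Hoxb5os had 250 UMIs in WT and 228 in KO, a log2 ratio of 0.28 (0.01 to 0.54), and 0.56 (0.26 to 0.87) without the oocyte-list cells. A single KO-labelled cell held 92 of the 228 Hoxb5os UMIs, or 40.4%, and without the cell with the most UMIs in each pool, an alternative added after the values were seen, the ratio turned to -0.27. Hoxb5os was seen in 10.8% (7.30 to 15.2) of thinned WT-labelled cells and 8.12% (4.96 to 12.4) of those labelled KO, so no direction can be given for it. Of the 33 thinned WT-labelled cells with Hoxb5, 5 also held Hoxb5os, and 7 of the 26 labelled KO did. Reads from sequence that the 2 genes share cannot be told apart without strand. The overlap is of whole gene spans, introns included, and whether it reaches the counted poly(A) ends was not examined. Gene spans also overlap on opposite strands for Hoxa5 and Hoxa7 with Hoxaas3, Hoxb2 and Hoxb3 with Hoxb3os, Hoxb3 with Gm11536 and Pbx3 with C79798. On their own strands, the span of Hoxa5 overlaps Hoxa3 and Gm28308 and that of Hoxa9 overlaps Mir196b.

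Hoxb4, whose overexpression expands HSCs, was the lowest gene in both pools, level with Hoxb3 in the KO-labelled pool, with 176 and 164 UMIs and 8.20 CPM (7.03 to 9.50) and 10.1 CPM (8.64 to 11.8). Its log2 ratio was 0.31 (-0.01 to 0.62) and -0.00 (-0.33 to 0.32) without the oocyte-list cells, in which Hoxb4 had 2.90 CPM. Hoxb3 had 252 and 166 UMIs, 11.7 CPM (10.3 to 13.3) and 10.3 CPM (8.76 to 11.9), and a log2 ratio of -0.19 (-0.49 to 0.09), or -0.17 without the oocyte-list cells. The intervals of both genes held 0. The Hoxb3 value turned to 0.67 in the single random draw that thinned cells to 20000 UMIs, and was 0.13 as a mean of the cells' CPM. Hoxb2, the gene nearest the 3' end of the cluster among these, had 307 and 293 UMIs and 14.3 CPM (12.7 to 16.0) and 18.1 CPM (16.1 to 20.3). The log2 ratio of Hoxb2 was 0.34 (0.11 to 0.58), and 0.45 (0.19 to 0.72) without the oocyte-list cells. It was 0.12 as a mean of the cells' CPM and turned to -0.20 in the single draw that thinned cells to 20000 UMIs. The share of thinned cells with Hoxb2 was 15.1% in WT and 12.0% in KO, so the direction of Hoxb2 differed between measures.

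Pbx3, the cofactor, had 414 UMIs in WT and 394 in KO. The Pbx3 level was 19.3 CPM (17.5 to 21.2) and 24.4 CPM (22.0 to 26.9), between the 3 highest Hoxa genes and most of the Hoxb genes. The log2 ratio was 0.34 (0.13 to 0.54), and 0.17 (-0.04 to 0.38) without the oocyte-list cells. Cells with Pbx3 were 14.7% (10.6 to 19.6) of thinned WT-labelled cells and 17.1% (12.5 to 22.5) of those labelled KO. In both pools the cells that held Pbx3 had a median of 2 UMIs.

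**Figure D2:**
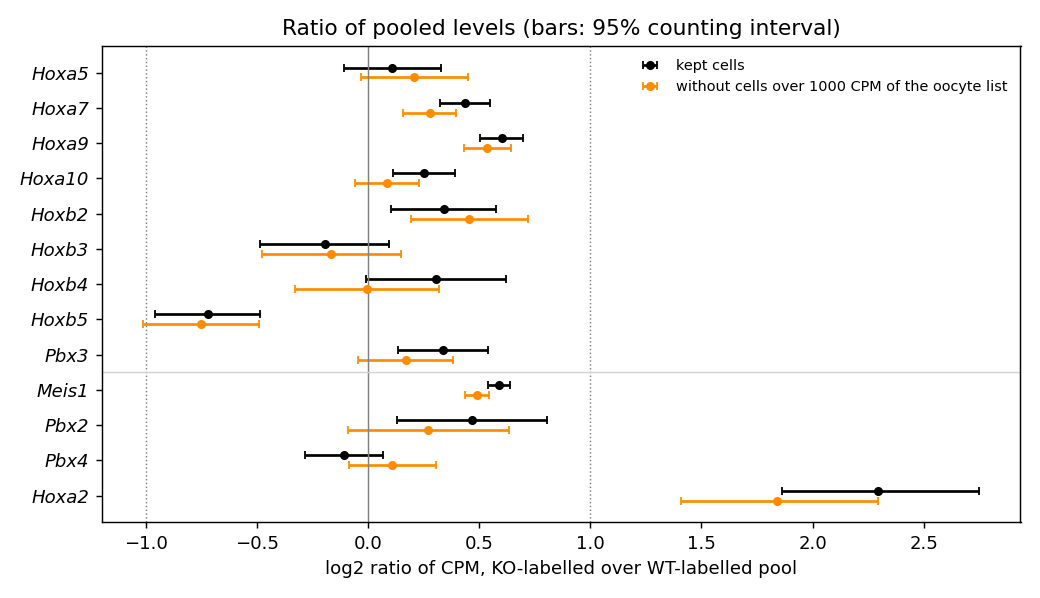
Log2 ratio of CPM in the KO-labelled pool over the WT-labelled pool (horizontal axis) for the 9 genes and, under the grey line, 4 related genes, with 95% counting intervals as error bars, in all kept cells (black) and without oocyte-list cells (orange). Among the 9 genes, the intervals of Hoxa7, Hoxa9 and Hoxb2 lie right of 0 and that of Hoxb5 left of 0 in both sets. The intervals of Hoxa10 and Pbx3 reach 0 in the orange set. Dotted lines mark 2-fold.

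The order of levels was read from UMIs per transcript counted at the poly(A) end, which are not scaled by gene length. In the WT-labelled pool the order was Hoxa9, Hoxa7, Hoxa10, Hoxb5, Pbx3, Hoxa5, Hoxb2, Hoxb3 and Hoxb4. The counting intervals overlapped among Hoxb5, Pbx3 and Hoxa5, and between Hoxb2 and Hoxb3. In the KO-labelled pool the first 3 genes held the same places, followed by Pbx3, Hoxa5, Hoxb2, Hoxb5, Hoxb3 and Hoxb4, with overlapping intervals between Hoxa5 and Hoxb2 and among the last 3. Hoxb5 stood in place 4 in WT and in place 7 in KO.

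UMIs of the 9 genes were clumped in single cells. Apart from Hoxa9, each gene was missing from most cells, and the cells that held a gene had medians of 2 to 6.5 UMIs in WT and 2 to 9 in KO, with up to 148 UMIs of Hoxa7 in a single cell. Genes whose share of cells lay within the range of the 9 had medians of 3 UMIs in WT (quartiles 2 and 4) and 4 in KO (3 and 5). Clumping was therefore not particular to these genes. The medians of Hoxa7 and Hoxa9 lay above the upper quartile in both pools, as did that of Hoxb3 in WT and of Hoxa10 in KO. The variance of UMIs over cells was 15.2 to 40.7 times the mean in WT and 7.83 to 53.8 times in KO. Genes within that range of shares had a median of 20.5 times in both pools. Independent molecules spread evenly over cells would give a value near 1. The counting intervals above are therefore narrower than the spread between cells, and they hold neither the spread between cells nor that between animals.

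**Figure D3:**
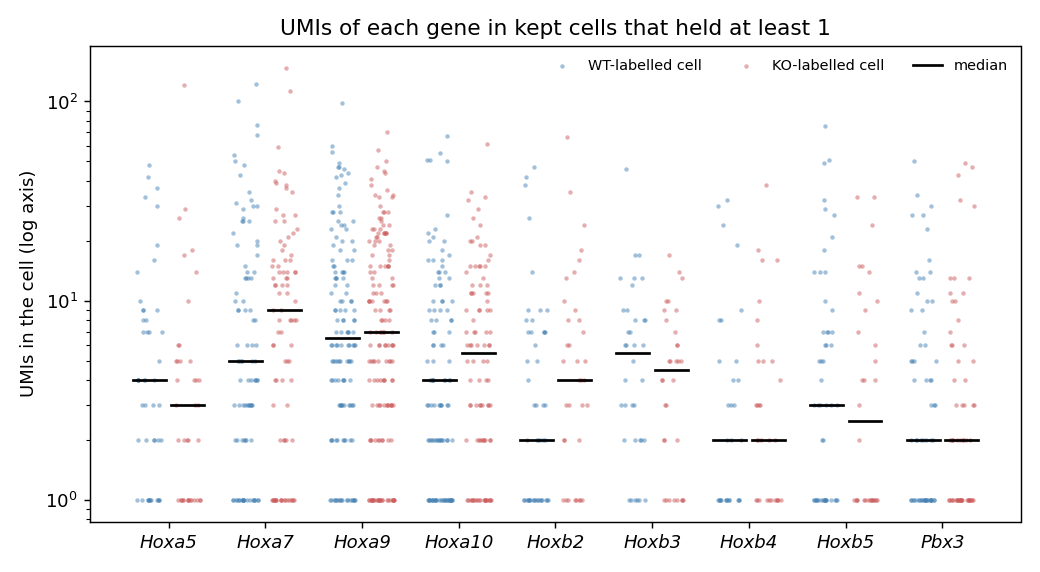
UMIs in each kept cell that held at least 1 (vertical log axis) for the 9 genes, with WT-labelled cells in blue and KO in red and black lines at the median of these cells; cells with 0 UMIs are not drawn. The points spread from 1 to over 100 UMIs for several genes, and the Hoxa7 medians are 5 and 9.

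Zp3, an egg-coat gene that HSCs should lack, served as a gauge of how widely oocyte transcripts were seen among the cells. How such transcripts came to be counted in a cell was not tested. Zp3 was present in 48.3% (42.0 to 54.5) of thinned WT-labelled cells and 6.41% (3.63 to 10.4) of those labelled KO, and still in 35.6% and 5.65% without the oocyte-list cells. In WT-labelled cells the share of every one of the 9 genes lay under the gauge when all kept cells were used. Without the oocyte-list cells every share but that of Hoxa9 did. In the KO-labelled pool every gene's share lay above the gauge, at 9.40% for the lowest, Hoxb4, although the interval of Zp3 reached 10.4%. Zp3 gauges oocyte transcripts only, so a share above or under it does not show whether these cells transcribed the gene. In neither pool were the shares read as shares of expressing cells. The median depth was 59649 UMIs in WT and 50281 in KO before thinning.

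**Figure D4:**
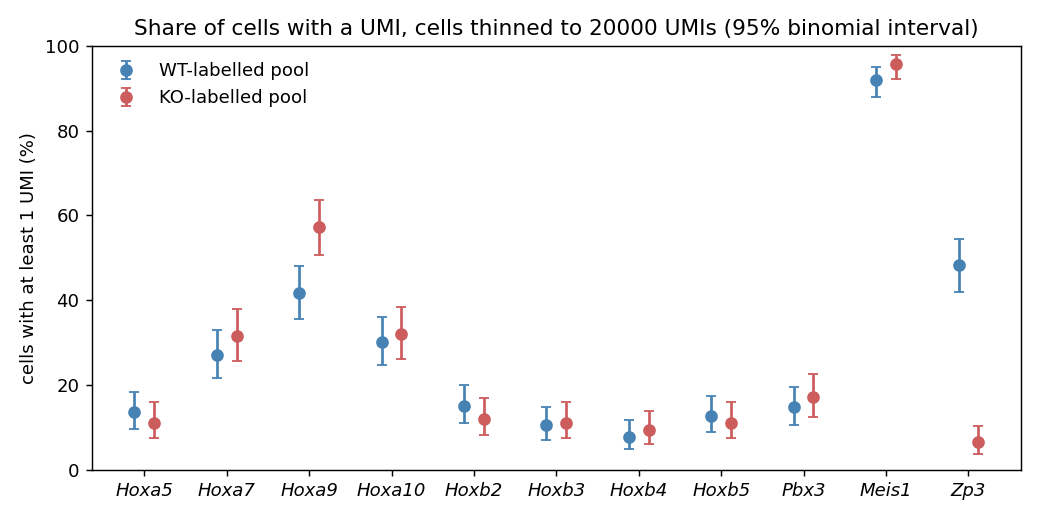
Share of cells with at least 1 UMI after thinning to 20000 UMIs per cell (vertical axis), with 95% binomial intervals as error bars, for the 9 genes, for the cofactor Meis1 and for the egg-coat gene Zp3. Hoxa9 is the gene among the 9 whose intervals do not meet, at 41.7% and 57.3%, and Zp3 stands at 48.3% in WT and 6.41% in KO.

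Hox genes were next counted cell by cell. After thinning, a UMI of any of the 8 Hox genes was present in 80.7% (75.4 to 85.3) of WT-labelled cells and 88.0% (83.2 to 91.9) of KO-labelled cells, and without thinning in 88.8% and 91.9%. Cells with Hoxa but not Hoxb UMIs made up 45.2% (39.0 to 51.5) in WT and 55.1% (48.5 to 61.6) in KO. Cells with both sets were 27.8% and 26.9%, and cells with Hoxb but not Hoxa UMIs 7.72% and 5.98%. The median number of the 8 Hox genes seen in a cell was 2 in both pools before thinning, and 1 and 2 after it. The highest number was 6, in 3 WT-labelled cells and 1 KO-labelled cell before thinning.

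**Figure D5:**
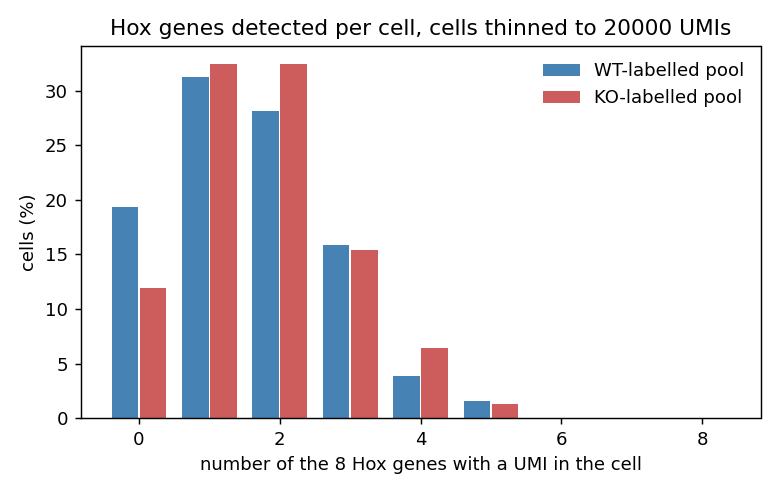
Share of cells (vertical axis) by the number of the 8 Hox genes with a UMI after thinning to 20000 UMIs (horizontal axis) in WT-labelled cells (blue) and KO (red). Cells with no Hox UMI make up 19.3% in WT and 12.0% in KO.

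The levels of the 9 genes were also set against each other over cells. Over 36 pairs, Pearson's r of log2(CPM/100 + 1) lay between -0.14 and 0.18 over 259 WT-labelled cells and between -0.11 and 0.16 over 234 KO-labelled cells, values that show neither a relation nor its absence in counts this sparse. By the mean of the r in both pools, the genes most like the summed Hox members were Tcp11l2 (0.23), Ifitm1 (0.22), Tmem80 (0.19), Pnrc1 (0.19) and Dus3l (0.18). These are weak likenesses over cells of the same pools, and r between the summed Hox members and the log2 depth of the cell was -0.01 in WT and -0.02 in KO.

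Of 39 Hox genes listed, 9 were in the table, the 8 described here and Hoxa2, and the rest were not analysed here. Hoxa2, which patterns the hindbrain in the embryo, had 56 UMIs in 6 WT-labelled cells and 207 UMIs in 27 KO-labelled cells. One WT-labelled cell held 41 of the 56 Hoxa2 UMIs. The log2 ratio of Hoxa2 was 2.29 (1.86 to 2.75), and 1.84 (1.41 to 2.29) without the oocyte-list cells, and it was the only one of the 9 Hox genes in the table past 2-fold. The shares of thinned cells with Hoxa2 were 1.16% (0.24 to 3.35) and 6.84% (3.96 to 10.9), the latter near the Zp3 gauge.

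The TALE cofactors differed in both directions, with 4 of the 9 counted here higher in the KO-labelled pool and 5 lower, and a median log2 ratio of -0.11. Meis1, the partner of Hoxa9 that stabilises it on DNA, was seen in 91.9% (87.9 to 94.9) of thinned WT-labelled cells and 95.7% (92.3 to 97.9) of those labelled KO. Meis1 stood at 292 CPM (285 to 299) and 439 CPM (429 to 449), a log2 ratio of 0.59 (0.54 to 0.64), which was close to that of Hoxa9, and 0.49 (0.44 to 0.54) without the oocyte-list cells. Pbx2 had a log2 ratio of 0.47 (0.13 to 0.81) and Pbx4 one of -0.11 (-0.28 to 0.07), which were 0.27 (-0.09 to 0.63) and 0.11 (-0.09 to 0.31) without the oocyte-list cells.

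Among the TALE genes outside the Pbx and Meis families, the log2 ratio was 0.68 (0.51 to 0.86) for Pknox1, another partner of Pbx, and for the repressors Tgif1 and Tgif2 it was -0.95 (-1.10 to -0.81) and -0.41 (-0.66 to -0.16). Meis2 had 519 UMIs in 37 WT-labelled cells, of which 491 lay in oocyte-list cells, and 2 UMIs in the KO-labelled pool. The log2 ratio of Meis2 was -7.03 with pooled counts under 3 raised to 3 and a counting interval from -10.66 to -5.75, and -3.26 (-10.20 to -2.25) without the oocyte-list cells, where 28 UMIs stood against 1. Meis3 had 122 UMIs in 13 WT-labelled cells, 55 of them in a single cell, and 4 UMIs in 1 KO-labelled cell.

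The partners of Hoxa9 were also counted within single cells. Among thinned cells with Hoxa9, 92.6% (85.9 to 96.7) of 108 in WT and 96.3% (91.5 to 98.8) of 134 in KO also held Meis1. Pbx3 was present in 11.1% (5.87 to 18.6) and 17.2% (11.2 to 24.6) of the thinned cells with Hoxa9. Over all thinned cells the shares were 91.9% and 95.7% for Meis1 and 14.7% and 17.1% for Pbx3, each inside the matching interval. Cells with Hoxa9 therefore did not stand apart in either partner. Cells with a UMI of Hoxa9, of Meis1 and of Pbx3 together were 12 of 259 in WT (4.63%, 2.42 to 7.95) and 22 of 234 in KO (9.40%, 5.99 to 13.9), and these intervals overlapped. These joint counts were not set against the number expected from the single shares.

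The list of genes known as targets of Hoxa9 and Meis1 also holds Meis1 itself, described above. Of its 9 genes, 7 were higher in the KO-labelled pool, with Meis1 among them, where 52.8% of the 9325 genes were above 0. The median log2 ratio of the list was 0.62. Among the 9, 2 were at least 2-fold higher, where 5.46% of all genes were. These were Pim1, a survival kinase, at 13.1 and 40.5 CPM with a log2 ratio of 1.62 (1.42 to 1.83), and Flt3, a cytokine receptor of multipotent progenitors, at 12.9 and 26.5 CPM with a log2 ratio of 1.03 (0.81 to 1.26). Of 21 MLL partners, 12 were higher and 9 lower, a count near the 52.8% of all genes above 0, with a median of 0.14. Among the 18 that averaged 0.5 UMI or more per kept cell, 0 were past 2-fold in either direction. That count was near the 5.46% and 5.35% of all genes past 2-fold. Hcfc2, an MLL partner under that minimum, was past 2-fold, with 68 and 152 UMIs and a log2 ratio of 1.57. Of 25 Polycomb genes in the table, 17 were higher and 8 lower, with a median of 0.10, and 1 was past 2-fold in each direction. Asxl1, of the Polycomb deubiquitinase, had a log2 ratio of 1.60 (1.39 to 1.81), and Pcgf1, of a variant Polycomb complex, one of -1.91 (-2.21 to -1.63), which was -0.55 (-0.90 to -0.20) without the oocyte-list cells. The lists were chosen with earlier results known, and the median over all 9325 genes was 0.03.

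The HSC label was set against 16 HSC markers, all of which were in the table, with 8 higher and 8 lower in the KO-labelled pool and a median log2 ratio of 0.01. They summed to 1763 CPM in WT and 1618 CPM in KO, and no kept cell was at 0, the lowest having 204 CPM in WT and 302 CPM in KO. Slamf1, which encodes the CD150 used in the sort, had a log2 ratio of -2.26 (-2.53 to -1.99), Esam one of -1.39 (-1.52 to -1.26) and Mecom, a regulator of HSC quiescence, one of 1.14 (1.0 to 1.27). Few markers of other blood cells were in the table, with 1 of 9 for B cells, 1 of 9 for T cells, 2 of 9 for neutrophils, 2 of 8 for macrophages and 4 of 11 for erythroid cells. Summed levels in the WT-labelled and KO-labelled pools were 55.4 and 86.3 CPM for B cells (Cd79b), 9.92 and 10.1 for T cells (Lck), 23.6 and 11.4 for neutrophils (S100a8 and S100a9), 32.0 and 59.1 for macrophages (Cd68 and C1qa) and 1498 and 1167 for erythroid cells (Car1, Car2, Epor and Klf1). Car2 made up 1467 and 1096 CPM of the erythroid sums. Klf1, with 213 and 39 UMIs, had a log2 ratio of -2.04 (-2.57 to -1.54) and Epor one of -1.63 (-1.94 to -1.33), while Car1 had 3 UMIs in WT and 989 in KO, of which 955 lay in a single cell. The stromal and endothelial list, with 7 of 11 genes in the table, summed to 93.7 and 113 CPM, although 5 of the 7 genes were lower in the KO-labelled pool and the median log2 ratio was -1.75. Col1a1 and Col1a2, of fibroblasts, had 345 and 128 UMIs in WT against 4 and 5 in KO, and the leptin receptor gene Lepr 241 against 48. Without the oocyte-list cells the log2 ratio of Lepr moved from -1.92 to -0.21 and that of Kdr, a receptor of endothelial cells, from -1.75 to 0.88. The endothelial genes Pecam1 and Emcn, both also transcribed in HSCs, were the 2 higher genes, at 19.5 and 53.0 CPM for Pecam1 and 22.0 and 43.7 CPM for Emcn. The part of these cell types in the Hox values was not tested.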

How the data were processed

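Poly(A) RNA of hand-picked HSCs was measured in 8 libraries, 4 of each genotype. The authors aligned reads to the mm9 transcriptome, counted UMIs per gene, kept genes averaging above 0.2 and normalized these counts. Aligner and normalization method were not given in the sources used here. The deposited values are log2 of the normalized count plus 1, per the file headers for each cell of a genotype. UMIs were recovered as whole multiples of the smallest value of each cell (largest distance from a whole number 0.003). Kept cells had at least 2000 genes and 20000 UMIs. UMIs were summed over the cells of a label and given as CPM with exact Poisson intervals. Log2 ratios have exact 95% intervals from the share of both counts (Clopper-Pearson), with pooled counts under 3 raised to 3, and shares of cells have exact binomial intervals (Clopper-Pearson) after thinning each cell to 20000 UMIs. Thinning was a single random draw at each depth, and the spread between draws was not measured. With 1 pool per label there was no test. Hand-picked cells were neither screened for doublets nor clustered. No column was without a label.

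The genes and lists were chosen with earlier results of these data known. Named are the 9 genes, Med23, every Hox and TALE gene in the table (1 is not reported here), up to 5 genes of each other list that are past 2-fold at an average of 0.5 UMI or more per cell, of which those of the oocyte, stromal and blood cell lists are given as sums, and the 5 genes most like the summed Hox genes. Zp3, Hoxb5os and further genes were named after their values were seen. Alternatives were other cell filters, thinning, median-of-ratios and TMM scaling, equal weight of cells, a log scale and the authors' normalized values. The computation of ratios and intervals was tested on simulated data. Promoters came from a RefSeq table of GRCm38.p6 and overlapping genes from GENCODE vM21. Python 3.11.15, numpy 2.4.6, pandas 2.3.3, scipy 1.17.1 and matplotlib 3.10.9 were used.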

Additional observations from a re-analysis of the deposited data

How the results depend on the processing

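Over 9 alternatives that give a ratio, the log2 ratio of the summed Hoxa members lay between 0.34 and 0.49, that of the summed Hoxb members between -0.14 and 0.01, and that of all 8 summed Hox members between 0.25 and 0.39. Values outside the counting interval of the main ratio were 0.34 for the summed Hoxa members and 0.25 for all summed Hox members without oocyte-list cells, and, as a difference of cell means on the log2(CPM/100 + 1) scale, which compresses ratios, 0.32 for the summed Hoxa members. Single genes ranged from -0.38 to 0.21 for Hoxa5, from 0.28 to 0.49 for Hoxa7, from 0.54 to 0.74 for Hoxa9, from 0.08 to 0.38 for Hoxa10, from -0.29 to 0.67 for Hoxb3, from -0.00 to 0.49 for Hoxb4, from -0.98 to -0.17 for Hoxb5 and from 0.17 to 0.50 for Pbx3. These ranges leave out the difference of cell means on the log2(CPM/100 + 1) scale. It was 0.30 for Hoxa9, 0.10 for Hoxa7, 0.07 for Hoxa10, 0.05 for Pbx3 and -0.04 for Hoxb5. For the other genes it lay between -0.03 and 0.02. Hoxb2 changed sign to -0.20 in the single random draw that thinned cells to 20000 UMIs, against 0.12 as a mean of the cells' CPM, and the cause was not tested. Hoxb5os changed sign to -0.27 without the cell with the most UMIs, an alternative added after seeing the data. Med23, whose alternatives were added after seeing the data, ranged from -0.40 to 0.60. The number of the 9 genes past 2-fold was 0 under all 9 alternatives. The share of cells with a Hox UMI moved with depth, to 88.8% in WT without thinning, to 69.8% in WT and 79.1% in KO at 10000 UMIs, and to 71.0% and 81.2% with at least 2 UMIs, and stayed higher in the pool labelled KO. Median-of-ratios and TMM scaling moved all log2 ratios by -0.03. The lowest counts, 164 UMIs for Hoxb4, limit what can be seen in the Hoxb cluster. No paired analysis was possible because no column names its library, and for that reason leaving out each library in turn was not run either.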
